A study of Oryza sativa Indica Group with 6 samples.

Results

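The genes described here are the defence protein genes of a rice oligonucleotide array: PBZ1, other pathogenesis-related (PR) proteins, chitinases, beta-1,3-glucanases, thaumatin-like proteins, germins, Bowman-Birk inhibitors and cystatins. They were chosen by words in the description printed for each probe in the array files, which gave 120 of the 21495 gene probes. By description these were 3 PBZ1 probes, 9 other PR proteins, 42 chitinases, 26 glucanases, 11 thaumatin-like proteins, 17 germins, 6 Bowman-Birk inhibitors and 6 cystatins. A rice sequence was named in 72 of the 120 descriptions and a similar gene of another species in 48, and the latter are written as "like" that gene. The 120 probes carried 67 distinct descriptions, so probes with the same name can stand for different cDNAs or for the same gene, and each is given by its own cDNA name.

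Leaf RNA of FR13A, an indica rice that tolerates submergence, was co-hybridised with leaf RNA of IR24, a susceptible rice, on 6 dual-colour arrays. Untreated plants (constitutive) were sampled 14 days after sowing, plants held submerged in transparent bags were sampled after 15 min, on day 14, or after 24 h, on day 15, with 2 arrays for each group. The dyes were exchanged between replicate 1 and replicate 2 of every time. The groups held plants of 2 different varieties rather than near-isogenic lines, and no group held unsubmerged plants of day 15, so submergence and 1 day of age cannot be told apart at 24 h. The labels do not say whether the replicates came from separate plants, so the p-values measure only the spread between these arrays, and the number of arrays limits the precision.

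Plants make PR proteins when pathogens, wounding or stress hormones reach them, and many of these proteins are secreted into the cell wall space. Chitinases and beta-1,3-glucanases cut the main polymers of fungal cell walls, thaumatin-like proteins and germins act in the wall space, and PBZ1 is a rice protein of the intracellular PR10 family that was named for its induction by probenazole, a compound used against rice blast. Bowman-Birk inhibitors block serine proteases such as trypsin, and cystatins block cysteine proteases related to papain. In rice leaves these families are known both for induction by the blast fungus and for basal levels that differ between varieties.

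Of the 120 probes, 109 passed the signal filter (either channel well above background, on 2 or more arrays) and were tested between genotypes, and 102 of these had no missing channel and were also tested over time within a genotype. Over the 6 arrays 81.8% to 92.7% of all gene probes were well above background in FR13A and 87.3% to 95.3% in IR24. Of 36 leaf probes (photosystem, chlorophyll-binding and Rubisco small subunit genes) 34 to 36 were above background in every channel, against 5 to 7 of 9 seed storage probes, 4 to 8 of 9 root probes and 5 to 10 of 10 pollen probes. The tissue label is thus borne out for leaf, while seed, root and pollen probes were not all at background. Over all times 7 of 36 leaf (19.4%), 0 of 7 tested seed, 3 of 8 tested root (37.5%) and 6 of 10 pollen probes (60%) were called between genotypes. The share of all probes was 20.2%, and the pollen calls were 5 higher and 1 lower in FR13A. The root count was again 3 of 8 at 24 h, beside 7.62% of all probes. The pollen probes had a summed level in untreated leaves of 3815 to 4281 in FR13A and 2682 to 3230 in IR24, and the part of these probes' tissues in the genotype results was not tested. In bulk leaf RNA, fewer cells of a type and less RNA per cell cannot be told apart. A difference is called below where limma's Benjamini-Hochberg adjusted p was under 0.05. Genotype differences are log2 ratios of FR13A over IR24 measured within each array, and changes over time compare log2 channel levels between arrays, so they rest on normalisation between arrays and are secondary. The background correction adds an offset to every intensity, and the scanner's own processed signals, which carry none, gave wider differences for several probes. Those values are printed for some of the probes where they were over 1.5 times as large.

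Of the 109 probes tested, 50 were called in at least 1 of 10 comparisons and 59 in none. The matching share of all probes is not given here, so this count is not read as a trait of the defence probes. Over all times the genotypes differed at 40 of 109 probes (36.7%), 28 higher in FR13A and 12 lower, against 20.2% of all probes tested (10.1% higher and 10.1% lower). In untreated leaves 17 of 109 were called (15 higher, 2 lower) against 6.15% of all probes (3.18% higher, 2.96% lower). At 15 min 13 of 109 were called (10 higher, 3 lower) against 5.34% (2.42% higher, 2.91% lower), and at 24 h 20 of 109 (10 higher, 10 lower) against 7.62% (3.5% higher, 4.12% lower). Of the 10 lower calls at 24 h, those of the chitinases AK065866 and AK067962 rest on 1 array, since the other spot was marked as an outlier, and assume that it varies like the rest. The median log2 ratio of the 109 probes was 0.06 in untreated leaves, 0.01 at 15 min and 0.03 at 24 h, beside -0.01 for all probes at each time, so the calls lay in individual probes beside a median near 0. The counts moved with single arrays, for the defence probes and for all probes. In untreated leaves 17 defence probes and 1249 of all probes were called with every array, 3 and 178 when constitutive replicate 1 was left out, 3 and 377 when replicate 2 was, 26 and 1303 without either 15 min array, and 13 and 856 without either 24 h array. At 15 min the counts were 13 and 1084 with every array, 2 and 307 without 15 min replicate 2, 17 and 663 without 15 min replicate 1, 7 and 690 without either constitutive array, and 7 and 708 without either 24 h array. At 24 h they were 20 and 1546 with every array, 5 and 447 without 24 h replicate 2, 10 and 784 without 24 h replicate 1, 9 and 1158 without either constitutive array, and 23 and 1479 without either 15 min array.

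**Figure D1:**
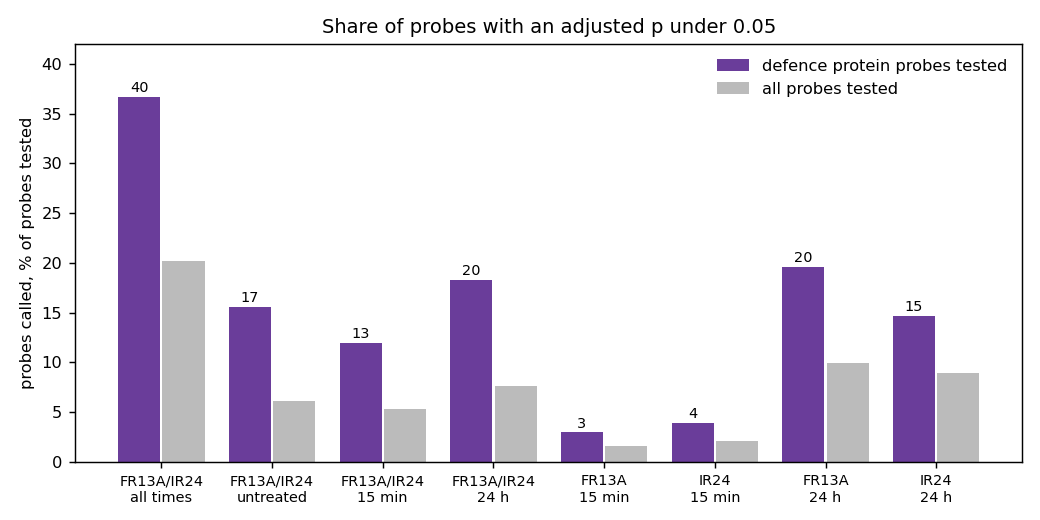
Percent of tested probes with an adjusted p under 0.05, for defence protein probes (purple, with their number above the bar) and for all probes tested (grey), in 8 comparisons. The largest share is 36.7%, for FR13A over IR24 over all times, and the smallest is 2.94%, for FR13A at 15 min.

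The widest FR13A over IR24 ratio of the 109 probes in untreated leaves was that of a PBZ1 probe. This probe, AK071613, had log2 ratios of 3.02 and 3.91 in untreated leaves, 1.17 and 3.51 at 15 min, and 0.01 and -0.92 at 24 h. The untreated arrays were high, the 15 min arrays spread widely and the 24 h arrays lay around 0. The mean log2 ratio was 3.46 (SE 0.57, n = 2 arrays, adjusted p = 0.0269) in untreated leaves, an 11-fold difference, then 2.34 (SE 0.57, adjusted p = 0.0892) at 15 min and -0.45 (SE 0.57, adjusted p = 0.745) at 24 h. The untreated call was lost without either constitutive array (adjusted p = 0.187 and 0.194) and without either 24 h array (adjusted p = 0.0538).

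The channel levels show in which genotype this PBZ1 probe moved. In FR13A its log2 level was 14.98 and 15.10 in untreated leaves, 14.61 and 16.33 at 15 min, and 11.73 and 10.71 at 24 h, so the 24 h channels lay below all others. It fell by 3.82 in FR13A at 24 h (SE 0.66, adjusted p = 0.00648), a 14.1-fold decrease. In IR24 its level was 11.95 and 11.20, then 13.44 and 12.82, then 11.71 and 11.63, a 24 h difference of 0.10 (SE 0.66, adjusted p = 0.973) with overlapping groups. At 15 min the IR24 difference was 1.56 (SE 0.66, adjusted p = 0.46), also not called although both 15 min channels were above both untreated ones. On the 1 scan day that held an array of each time the FR13A difference at 24 h was -4.26 and the IR24 difference -0.32. These values reuse 1 of the 2 arrays per time, and the dyes of the genotypes were exchanged between them. The FR13A call was lost without 24 h replicate 2 (adjusted p = 0.0808), constitutive replicate 1 (0.0542) or constitutive replicate 2 (0.0665). The change of the ratio itself from untreated leaves to 24 h was -3.92 (SE 0.80, unadjusted p = 0.00335, adjusted p = 0.276), so the difference in response between the genotypes did not pass.

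The second PBZ1 probe, AK099157, gave log2 ratios of 1.80 and 2.35 in untreated leaves, 1.63 and 2.14 at 15 min, and 1.24 and 0.21 at 24 h. All 6 were above 0, and the mean over all times was 1.56 (SE 0.16, adjusted p = 0.00229), a call kept under every alternative. It fell by 1.75 in FR13A at 24 h (SE 0.39, adjusted p = 0.0213), and the IR24 difference was -0.40 (SE 0.39). That FR13A call was lost without 24 h replicate 2 (-1.16), constitutive replicate 1 or constitutive replicate 2, and it was kept in 7 of 12 alternatives. The third probe, AK061606, carried the same description but its ratios lay between -0.03 and 0.20 on all 6 arrays, and it was called in no comparison. Of the 3 probes named PBZ1, 2 were thus called between genotypes over all times and 1 was not.

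The PR-1-like gene AK107926 (like a wheat PR-1, a secreted protein used as a marker of salicylate signalling) had the same order of values. Its log2 ratio was 2.01 and 3.04 in untreated leaves, 2.33 and 1.64 at 15 min, and -0.31 and 0.11 at 24 h, so the 24 h arrays stood apart from the other 4. The FR13A level was 8.82 and 9.64 untreated, 9.41 and 8.22 at 15 min, and 6.23 and 6.64 at 24 h, and the IR24 level lay between 6.53 and 7.08 throughout. It was higher in FR13A in untreated leaves by 2.52 (SE 0.29, adjusted p = 0.00881), a 5.75-fold difference, and it fell by 2.80 in FR13A at 24 h (SE 0.40, adjusted p = 0.00245), a call kept under every alternative. In IR24 the 24 h difference was -0.18 (SE 0.40, adjusted p = 0.882). Between the same 2 arrays of 1 scan day the 24 h differences were -2.18 in FR13A and -0.29 in IR24. With the processed signals the untreated ratio was 3.80 and the FR13A difference -4.11. The change of the ratio at 24 h was -2.62 (SE 0.41, unadjusted p = 0.000845, adjusted p = 0.171), which did not pass. The untreated call was lost without constitutive replicate 2 (adjusted p = 0.0679).

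**Figure D2:**
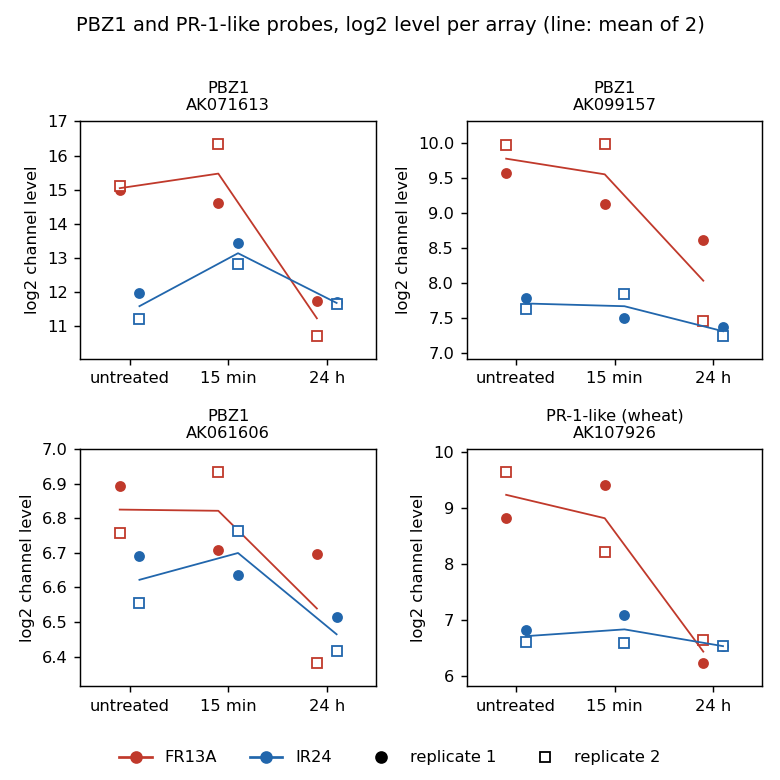
Log2 channel level (vertical axes) of 3 PBZ1 probes and a PR-1-like probe in untreated leaves and after 15 min and 24 h of submergence, FR13A in red and IR24 in blue, with 1 point per array and a line through the mean of 2. For AK071613 the FR13A points fall from 14.98 and 15.10 to 11.73 and 10.71, and for AK107926 from 8.82 and 9.64 to 6.23 and 6.64, to about the level of IR24, and AK061606 stays between 6.38 and 6.93.

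The rice PR1 gene AK060057 behaved in another way. No untreated or 15 min channel was well above background, with log2 levels of 5.92 to 6.10, and at 24 h the levels were 7.61 and 7.81 in FR13A and 8.95 and 8.94 in IR24. The 4 channels of 24 h were above the 8 others, and the IR24 ones above the FR13A ones. The rise was at least 3.24-fold in FR13A (log2 1.70, SE 0.13, adjusted p = 0.000112) and at least 7.75-fold in IR24 (log2 2.96, SE 0.13, adjusted p = 1.56e-05), and both calls were kept under every alternative. With the processed signals these log2 values were 4.25 and 5.86. For the bounds each untreated channel was set at the higher of its own level and the lowest level of a probe well above background there. At 24 h FR13A was lower by a log2 ratio of -1.24 (SE 0.10, adjusted p = 0.00206), with -1.35 and -1.13 on the 2 arrays. The change of the ratio was -1.26 (SE 0.14, unadjusted p = 0.000159, adjusted p = 0.078). This gene was also called lower in FR13A over all times (-0.399, SE 0.058, adjusted p = 0.00744), although only its 24 h channels were well above background. Of the other 4 measured PR probes, the barley PR-1a-like AK060005 was lower in FR13A over all times by -0.38 (SE 0.05, adjusted p = 0.00576), with ratios from -0.48 to -0.29.

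The 2 rice probes described only as pathogenesis-related protein, AK101969 and AK106128, rose within 15 min in both genotypes. AK101969 had FR13A levels of 13.36 and 13.41 untreated and 14.63 and 14.87 at 15 min, and IR24 levels of 13.18 and 13.32 against 15.03 and 14.77. In each genotype both 15 min channels were above both untreated ones. The rise was 1.37 in FR13A (SE 0.18, adjusted p = 0.00659) and 1.65 in IR24 (SE 0.18, adjusted p = 0.00171). AK106128 rose by 1.64 in FR13A (SE 0.23, adjusted p = 0.00824) and by 1.94 in IR24 (SE 0.23, adjusted p = 0.00275), and its 24 h value was 0.71 in FR13A (adjusted p = 0.0847) and 0.84 in IR24 (adjusted p = 0.0495). That 24 h call was lost without any 1 of the untreated and 24 h arrays (adjusted p from 0.106 to 0.372). The FR13A calls of both at 15 min were lost without either constitutive array, with adjusted p = 0.0804 and 0.131 for AK101969 and 0.0508 and 0.174 for AK106128.

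Few other defence probes changed at 15 min. In FR13A 3 of 102 were called, all higher, against 1.59% of all probes (1.32% higher), and in IR24 4 of 102, all higher, against 2.09% (1.94% higher). The same 3 probes were called in both genotypes: AK101969, AK106128 and AK110902, a glucanase-like gene (like Arabidopsis At2g27500). Both genotypes were read on the same arrays, and the matching overlap over all probes is not given here. AK110902 had FR13A levels of 7.29 and 6.93 untreated, 8.87 and 8.30 at 15 min and 6.75 and 6.66 at 24 h, so it was high at 15 min only. It rose by 1.48 in FR13A (SE 0.24, adjusted p = 0.0178) and by 1.68 in IR24 (SE 0.24, adjusted p = 0.0082). Its FR13A call was lost without either constitutive array (adjusted p = 0.102 and 0.313) or either 24 h array (0.0786 and 0.0842), and its IR24 call without either constitutive array (0.0759 and 0.109). With the processed signals the IR24 value was 2.44. The fourth IR24 call was the sorghum glucanase-like AK058891, at 0.72 (SE 0.14, adjusted p = 0.0324), which was lost without any 1 of the 6 arrays (adjusted p from 0.0915 to 0.18) and was 1.48 with the processed signals. Without either constitutive array FR13A had 0 calls and IR24 had 2, and without 15 min replicate 2 IR24 had 7. With scan day as a fixed term the count at 15 min was 0 of 102 in each genotype. Of 8 tested pollen probes 1 was called in each genotype at 15 min, the highest difference in the list being 2.79 in FR13A and 2.90 in IR24, and the summed pollen level was 2709 to 12750 in FR13A and 2141 to 8991 in IR24. The part of pollen in the 15 min results was not tested. The change of the ratio from untreated leaves to 15 min was called for 0 of 109 defence probes and for 0% of all probes by limma, and 4 of the 109 had an unadjusted p under 0.05.

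After 24 h more defence probes had moved in both genotypes, in both directions. In FR13A 20 of 102 were called (7 higher, 13 lower) against 9.93% of all probes (4.16% higher, 5.77% lower), and in IR24 15 of 102 (9 higher, 6 lower) against 8.91% (4.44% higher, 4.46% lower). Of these, 12 were called in both genotypes, 6 higher and 6 lower in each, which is 60% of the FR13A list and 80% of the IR24 list. The 2 lists come from the same arrays and are not independent. The matching overlap over all probes is not given here, so these shares are not read as particular to the defence probes. Without 24 h replicate 1, 24 h replicate 2, constitutive replicate 1 or constitutive replicate 2 the FR13A count was 10, 11, 9 or 12. The IR24 count was 8 without 24 h replicate 2, 7 without constitutive replicate 1, 5 without constitutive replicate 2 and 23 without either 15 min array. Without 15 min replicate 1 or 2 the FR13A count was 27 or 28. The counts of all probes were then 2160 or 2037 in FR13A and 1953 or 1850 in IR24, beside 1877 and 1684 with every array. The counts of all probes also fell without any 1 of the untreated and 24 h arrays, so these shifts are not read as particular to the defence probes. With scan day as a fixed term 9 FR13A and 5 IR24 calls were made. Some markers of leaf and of other tissues moved at the same time, and 0 of 8 tested pollen probes were called in each genotype. Of 8 tested root probes 1 was called in FR13A (higher) and 2 in IR24 (1 higher, 1 lower, median log2 difference 0). Of 7 tested seed storage probes 1 was called in each genotype, higher. Leaf probes were called at 5 of 34 in FR13A (1 higher, 4 lower, median log2 difference 0.01) and at 3 of 34 in IR24 (all lower, median -0.35). The summed level of the root probes was 3468 to 3684 in untreated FR13A leaves and 5470 to 7267 at 24 h, with 7 to 8 of 9 above background in all 4 channels, and in IR24 it was 4746 to 5729 and 6910 to 10080, with 5 to 7 and 7 to 8 of 9 above background. Seed storage probes summed to 1060 to 1106 and 1395 to 1628 in FR13A, and to 1029 to 1150 and 1300 to 1459 in IR24. The part of these tissues in the defence results was not tested.

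**Figure D3:**
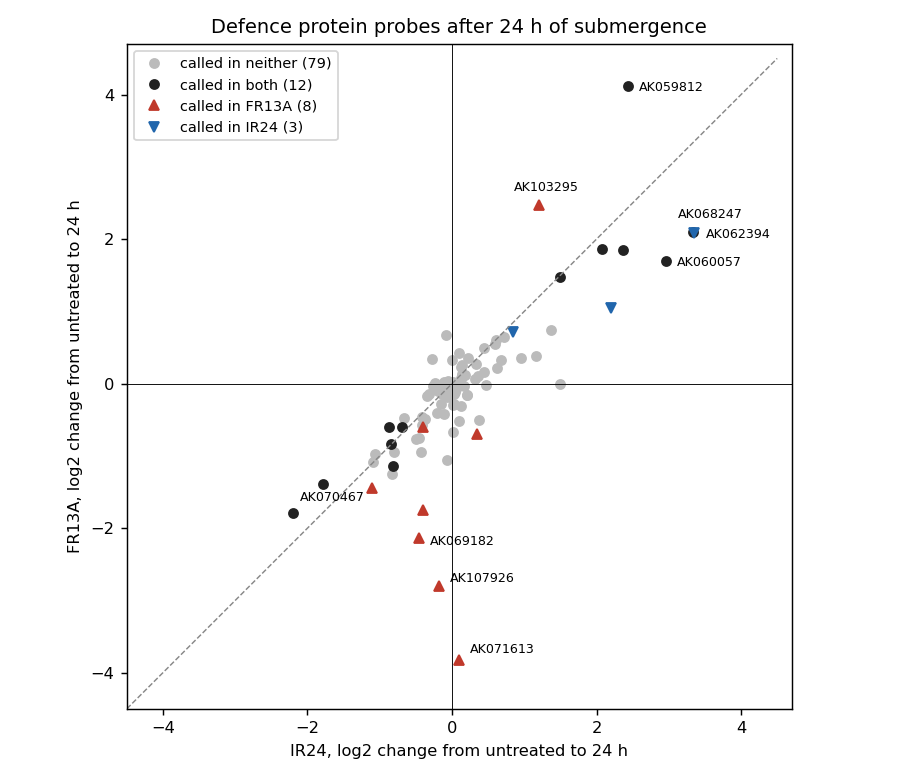
Log2 change from untreated leaves to 24 h in IR24 (horizontal axis) and FR13A (vertical axis) for the 102 defence protein probes with all channels, where the dashed line marks equal change. The 12 probes called in both genotypes lie to the upper right and the lower left of the origin, and AK071613 and AK107926 lie near 0 for IR24 and at -3.82 and -2.80 for FR13A.

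The germin-like gene GER2 (AK059812) had the largest rise at 24 h in FR13A. Germin-like proteins are cupin-fold proteins of the cell wall space, some of which make hydrogen peroxide. Its log2 level in FR13A was 6.18 and 6.20 untreated, 6.44 and 6.61 at 15 min, and 10.32 and 10.30 at 24 h, and in IR24 it was 6.63 and 6.49, 6.55 and 6.67, and 8.90 and 9.10. Both genotypes were high at 24 h only, FR13A above IR24, and 1 of the 6 FR13A channels, at another time, was not well above background. It rose by 4.12 in FR13A (SE 0.13, adjusted p = 1.45e-06), 17.4-fold, and by 2.44 in IR24 (SE 0.13, adjusted p = 2.21e-05), 5.43-fold, and both calls were kept under every alternative. With the processed signals the rises were 6.08 and 3.54. GER2 was the 1 defence probe of 109 (0.917%) whose ratio change at 24 h was called, at 1.68 (SE 0.14, adjusted p = 0.0374), against 0.108% of all probes, and 12 of the 109 had an unadjusted p under 0.05. This call was lost without any 1 of the 6 arrays, at values from 1.57 to 1.79 and adjusted p from 0.0615 to 0.329, and the value was 2.51 with the processed signals. At 24 h FR13A was above IR24 by a log2 ratio of 1.31 (SE 0.10, adjusted p = 0.00151), with 1.42 and 1.20 on the 2 arrays.

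A second probe with the description GER2, AK059781, had ratios from -0.17 to 0.62 and was called in no comparison. Over all times 3 of 15 measured germins (20%) were called between genotypes, near the 20.2% of all probes, and in untreated leaves and at 15 min 0 were (2 and 3 of 15 had an unadjusted p under 0.05). At 24 h 3 of 15 were called (2 higher, 1 lower), 20% beside 7.62% of all probes. Beside GER2 these were GER1 (AK059338) at 0.66 (adjusted p = 0.0288) and GER8 (AK060864) at -1.18 (adjusted p = 0.0254). Each of these 2 calls was kept in 6 of 12 alternatives. Of the 3 called over all times, 1 was GER2 (AK059812), higher in FR13A by 0.285 (SE 0.055, adjusted p = 0.0197). Its ratio was above 0 on only 2 of 6 arrays, both of 24 h. GER8 (AK060864) was lower in FR13A over all times by a ratio of -0.81 (SE 0.12, adjusted p = 0.00707), below 0 on 6 of 6 arrays. GER1 (AK059338) was higher by 0.47 (SE 0.07, adjusted p = 0.00749), and its level fell at 24 h by 0.60 in FR13A (SE 0.15, adjusted p = 0.034) and by 0.88 in IR24 (SE 0.15, adjusted p = 0.00609). Both 24 h calls of GER1 were lost without constitutive replicate 1 (adjusted p = 0.185 and 0.0707) or replicate 2 (0.157 and 0.0531), and the FR13A call also without 24 h replicate 1 (0.058) or 24 h replicate 2 (0.227). With the processed signals the IR24 value was -1.64. GER5 (AK065284) was not called, but 4 of its 12 channels were saturated (1 FR13A, 3 IR24), so its ratios are not read here.

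Chitinases were the largest group, and 17 of its 38 measured probes differed between genotypes over all times (44.7% beside 20.2% of all probes), 13 higher in FR13A and 4 lower (10.1% of all probes in each direction). The widest ratio was that of AK102820 (like the class V chitinase of tobacco), at 1.52 and 2.20 in untreated leaves, 2.12 and 2.17 at 15 min, and 1.30 and 2.35 at 24 h. It was above 0 on every array, with a mean of 1.94 (SE 0.16, adjusted p = 0.000987), 3.85-fold, and 2.91 with the processed signals. The chickpea chitinase-like AK106178 had ratios from 0.79 to 1.91 and a mean of 1.42 (SE 0.10, adjusted p = 0.00054), and the bulb chitinase-1-like AK059767 (like a tulip gene) ratios from 1.16 to 2.35 and a mean of 1.71 (SE 0.16, adjusted p = 0.00166). These 3 calls were kept under every alternative. The class III chitinase homologue AK103295 was higher by 1.62 (SE 0.12, adjusted p = 0.00067). The acidic class III chitinase AK100973 was higher by 1.34 (SE 0.19, adjusted p = 0.00731), and chitinase IIb AK071013 by 1.27 (SE 0.14, adjusted p = 0.00258).

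Not all chitinases were higher in FR13A. The rice chitinases AK065866 and AK062114 were lower, with means over all times of -1.54 (SE 0.16, adjusted p = 0.00492) and -1.46 (SE 0.24, adjusted p = 0.0112). AK065866 had ratios from -2.00 to -1.03 on 5 arrays, and its spot on 24 h replicate 2 was marked as an outlier and is missing. AK062114 had ratios from -2.50 to -0.89 on 6 arrays and lost its call without constitutive replicate 1 (-1.38, adjusted p = 0.0587). Another rice chitinase, AK111415, was lower by -0.96 (SE 0.12, adjusted p = 0.0049) and below 0 on 6 of 6 arrays. The rice chitinase AK102505, with the same description as these 3, had a mean ratio in favour of FR13A of 1.56 (SE 0.29, adjusted p = 0.0169), with ratios from 0.74 to 2.74, and lost its call without 24 h replicate 1 (adjusted p = 0.0564), constitutive replicate 1 (0.0778) or constitutive replicate 2 (0.065).

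At 24 h 6 of 33 chitinases were called in FR13A (2 higher, 4 lower), 18.2% beside 9.93% of all probes, and 5 of 33 in IR24 (2 higher, 3 lower), 15.2% beside 8.91%. The bulb chitinase-1-like AK060033 had FR13A levels of 10.25 and 10.29 untreated and 12.19 and 12.04 at 24 h, and IR24 levels of 9.47 and 10.04 against 12.35 and 11.90. Its groups did not overlap in either genotype, and it rose by 1.85 in FR13A (SE 0.23, adjusted p = 0.00128) and by 2.37 in IR24 (SE 0.23, adjusted p = 0.000347). The class III chitinase homologue AK103295 had FR13A levels of 7.58 and 8.21 untreated and 10.93 and 9.79 at 24 h, and IR24 levels of 6.68 and 6.49 against 8.23 and 7.35. It rose by 2.47 in FR13A (SE 0.41, adjusted p = 0.00514), and the IR24 value was 1.20 (SE 0.41, adjusted p = 0.114). The FR13A call was lost without 24 h replicate 1 (1.89, adjusted p = 0.0553) or constitutive replicate 1 (adjusted p = 0.0594), and the change of its ratio was 1.27 (SE 0.29, adjusted p = 0.326). Its FR13A over IR24 ratio at 24 h, 2.57 (SE 0.20, adjusted p = 0.00189), was 5.95-fold and stayed called under every alternative.

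The acidic class III chitinase AK100973 rose by 2.21 in IR24 (SE 0.38, adjusted p = 0.00637), from levels of 8.54 and 8.30 to 10.35 and 10.90, and its FR13A value was 1.05 (SE 0.38, adjusted p = 0.127). The IR24 call was lost without 24 h replicate 2 (adjusted p = 0.0916), constitutive replicate 1 (0.0588) or constitutive replicate 2 (0.0737). Chitinase IIb AK071013 went the other way, from 10.37 and 9.73 to 8.84 and 8.47 in FR13A and from 9.18 and 8.64 to 7.69 and 6.57 in IR24. It fell by 1.40 in FR13A (SE 0.37, adjusted p = 0.0438) and by 1.78 in IR24 (SE 0.37, adjusted p = 0.0163). The IR24 call was lost without 24 h replicate 2 (-1.21, adjusted p = 0.147), constitutive replicate 1 (adjusted p = 0.136) or constitutive replicate 2 (adjusted p = 0.056), and the FR13A call without 24 h replicate 1 or 2 (0.063 and 0.128) or constitutive replicate 1 or 2 (0.275 and 0.105). AK103755, like the Arabidopsis chitinase-like protein At1g05850 that is known there for a role in cellulose deposition and not in defence, fell by 1.14 in FR13A (SE 0.15, adjusted p = 0.00159) and by 0.82 in IR24 (SE 0.15, adjusted p = 0.00916). Its IR24 call was lost without 24 h replicate 1 (adjusted p = 0.114), 24 h replicate 2 (0.0652) or constitutive replicate 2 (0.081).

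**Figure D4:**
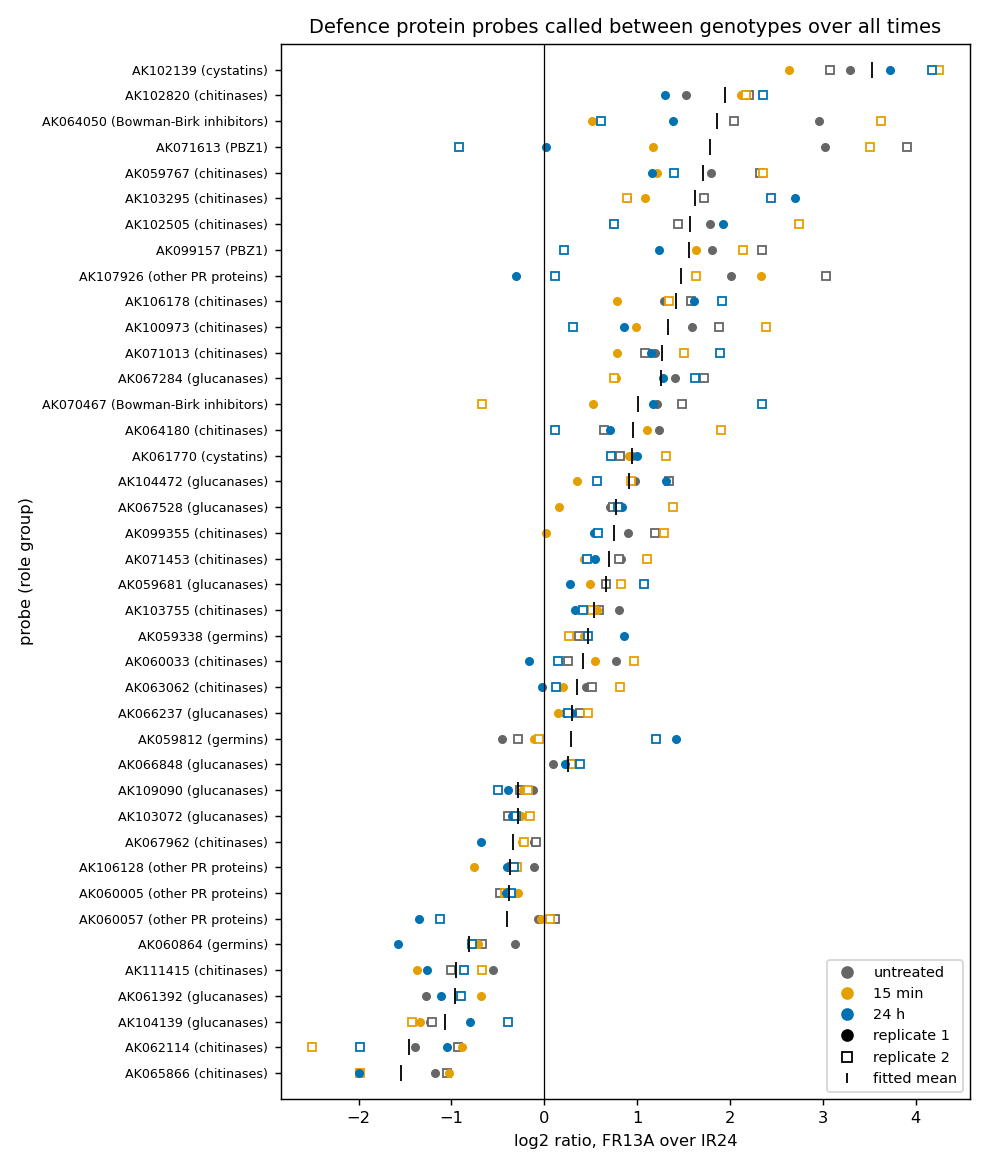
Log2 ratio of FR13A over IR24 (horizontal axis) on each array for the 40 defence protein probes called over all times (rows), coloured by time, with filled circles for replicate 1, open squares for replicate 2 and a bar at the fitted mean. Means run from the chitinase AK065866 at -1.54 to the cystatin AK102139 at 3.52, and the 24 h points of AK071613, AK107926 and AK060057 stand to the left of their other points.

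Among 25 measured glucanases 10 differed between genotypes over all times (40% beside 20.2% of all probes), 6 higher in FR13A and 4 lower. The glucanase-like AK067284 (like Arabidopsis At2g27500) was higher on every array, with ratios of 1.40 and 1.72 untreated, 0.77 and 0.75 at 15 min, and 1.27 and 1.62 at 24 h. Its mean was 1.26 (SE 0.07, adjusted p = 0.000326), and the call was kept under every alternative. The rice endo-1,3-beta-glucanase AK104139 was lower on every array, from -1.43 to -0.39, with a mean of -1.07 (SE 0.07, adjusted p = 0.000467). AK061392, like a tobacco glucanase induced by elicitors, was lower by -0.97 (SE 0.07, adjusted p = 0.000789), with ratios from -1.27 to -0.68, and it was 1 of 4 probes with that description, of which 2 were higher and 2 lower in FR13A.

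At 24 h 5 of 25 glucanases were called in FR13A (2 higher, 3 lower), 20% beside 9.93% of all probes, and 3 of 25 in IR24 (2 higher, 1 lower), 12% beside 8.91%. The rice beta-1,3-glucanase AK068247 had FR13A levels of 6.98 and 7.30 untreated and 9.30 and 9.17 at 24 h, and IR24 levels of 6.72 and 6.54 against 10.15 and 9.76. The order of the genotypes turned, from FR13A at or above IR24 before 24 h to IR24 above FR13A at 24 h. It rose by 2.09 in FR13A (SE 0.25, adjusted p = 0.000866) and by 3.33 in IR24 (SE 0.25, adjusted p = 7.33e-05), a 10.1-fold rise, and both calls were kept under every alternative. With the processed signals the rises were 2.73 and 4.49. The change of its ratio was -1.24 (SE 0.28, unadjusted p = 0.00516, adjusted p = 0.326), so that turn did not pass the test. A second rice glucanase, AK104472, rose by 1.86 in FR13A (SE 0.32, adjusted p = 0.00635) and by 2.08 in IR24 (SE 0.32, adjusted p = 0.00365). Both its calls were lost without constitutive replicate 2 (adjusted p = 0.0626 and 0.0531), and the FR13A call also without 24 h replicate 1 (0.0664). AK103072, another At2g27500-like probe, fell by 0.84 in both genotypes (SE 0.14, adjusted p = 0.00503 in FR13A and 0.00514 in IR24). Both these calls were lost without 24 h replicate 1 (adjusted p = 0.0749 and 0.081) or constitutive replicate 1 (0.059 and 0.0503), and the IR24 call also without constitutive replicate 2 (0.0535).

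**Figure D5:**
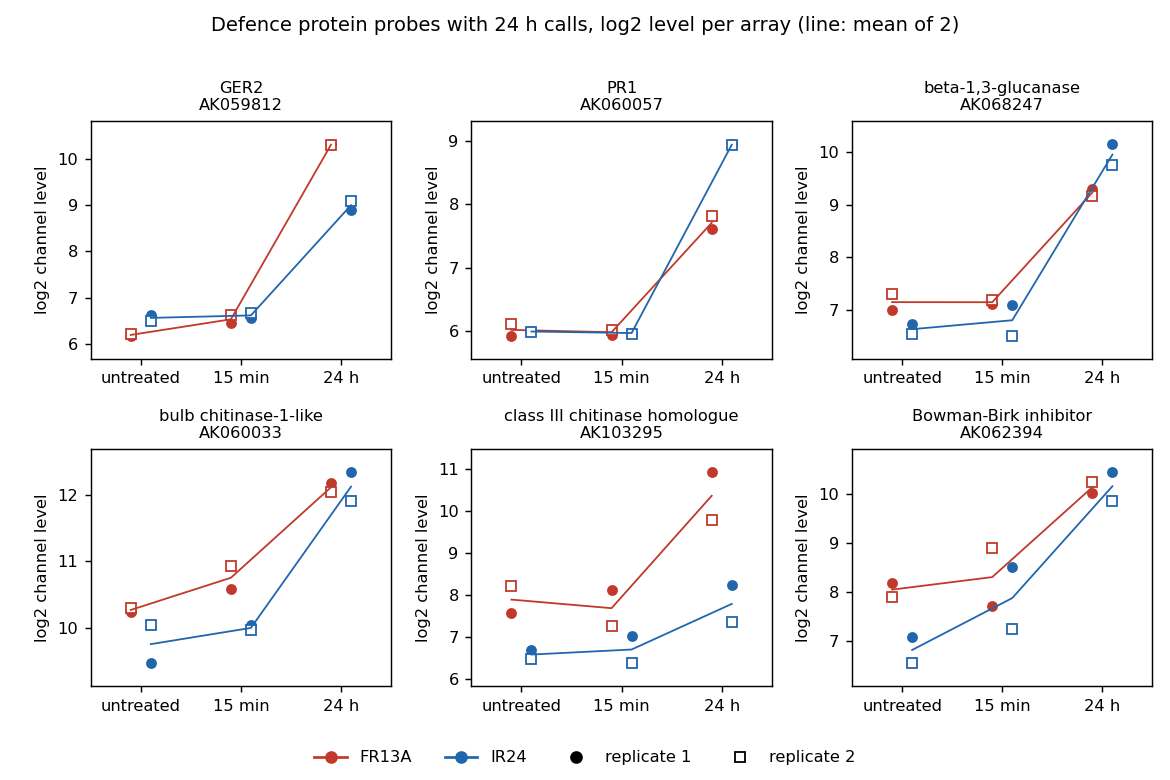
Log2 channel level (vertical axes) of 6 defence protein probes in untreated leaves and after 15 min and 24 h, FR13A in red and IR24 in blue, with 1 point per array (some points coincide) and a line through the mean of 2. All 6 are highest at 24 h in both genotypes, FR13A is above IR24 there for GER2 (10.32 and 10.30 against 8.90 and 9.10), and IR24 is above FR13A for PR1 (8.95 and 8.94 against 7.61 and 7.81).

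Of the 10 measured thaumatin-like probes, 0 were called by limma between genotypes over all times, beside 20.2% of all probes, and 5 had an unadjusted p under 0.05. In untreated leaves 1 of 10 was called (6.15% of all probes), at 15 min 0 (5.34%) and at 24 h 1 (7.62%). The 24 h call was AK099946, which shares its description with AK069182. It was lower in FR13A by -0.74 (SE 0.125, adjusted p = 0.0254), near background there, and kept this call in 7 of 12 alternatives. The rice thaumatin-like AK069182 had ratios of 0.99 and 1.06 in untreated leaves, 0.35 and -0.08 at 15 min, and -0.45 and -0.85 at 24 h, without overlap between untreated and 24 h arrays. Its FR13A level was 10.58 and 10.78 untreated, 10.16 and 9.36 at 15 min, and 8.66 and 8.43 at 24 h, while its IR24 level lay between 9.10 and 9.81. It fell by 2.14 in FR13A at 24 h (SE 0.24, adjusted p = 0.000654), kept under every alternative, and the IR24 value was -0.46 (SE 0.24). The untreated ratio of 1.03 (SE 0.15, adjusted p = 0.0178) was called but lost its call without either constitutive array (adjusted p = 0.181 and 0.139). The change of the ratio was -1.68 (SE 0.21, unadjusted p = 0.000276, adjusted p = 0.0903). AK069182, PBZ1 (AK071613 and AK099157) and the PR-1-like AK107926 were thus called higher in untreated FR13A and lower there by 24 h. Both parts use the same untreated FR13A channels and are not independent. The change of the ratio was called for none of these probes, and several of their calls were lost when 1 array was left out.

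The cystatin group held the widest genotype difference of all 109 probes. AK102139, like an extracellular cystatin of carrot, had ratios of 3.29 and 3.08 untreated, 2.63 and 4.25 at 15 min, and 3.72 and 4.17 at 24 h. Its FR13A levels were 9.28 to 10.44 and its IR24 levels 5.88 to 6.72, with no overlap, and 5 of the 6 IR24 channels were well above background. The mean ratio was 3.52 (SE 0.21, adjusted p = 0.00036), 11.5-fold, and its time changes were not called. The call was kept under every alternative, at 3.26 to 3.79 with 1 array left out and 5.34 with the processed signals. The probe's sequence was not among the data used here, so how well it matches the gene in each genotype was not tested. Oryzacystatin AK061770, the rice inhibitor of papain-like proteases, had FR13A over IR24 ratios from 0.72 to 1.31 on 6 arrays, with a mean of 0.95 (SE 0.08, adjusted p = 0.000947). It also rose at 24 h by 1.47 in FR13A (SE 0.21, adjusted p = 0.00199) and by 1.50 in IR24 (SE 0.21, adjusted p = 0.00192), and these 3 calls were kept under every alternative. The other 4 cystatins, oryzacystatin-II (AK061025) among them, were not called.

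The 6 Bowman-Birk inhibitors split by probe and by array. AK062394 rose by 3.34 in IR24 at 24 h (SE 0.62, adjusted p = 0.00947), from 7.08 and 6.54 to 10.45 and 9.86 (4.39 with the processed signals), and its FR13A value was 2.09 (SE 0.62, adjusted p = 0.0667), from 8.19 and 7.91 to 10.02 and 10.25. The IR24 call was lost without 24 h replicate 1 or 2 (adjusted p = 0.121 and 0.0667) or constitutive replicate 1 or 2 (0.0688 and 0.0986). The trypsin inhibitor AK070467 fell by 1.79 in FR13A (SE 0.43, adjusted p = 0.0284) and by 2.20 in IR24 (SE 0.43, adjusted p = 0.0119). Its IR24 call was lost without 24 h replicate 2 (-1.70, adjusted p = 0.0961) or constitutive replicate 1 or 2 (adjusted p = 0.118 and 0.0711), and its FR13A call without 24 h replicate 1 or 2 (0.0886 and 0.0612) or constitutive replicate 1 or 2 (0.159 for each). The trypsin inhibitor AK064050 was higher in FR13A over all times by 1.86 (SE 0.41, adjusted p = 0.0295), with ratios from 0.51 to 3.62, and lost its call without either constitutive or either 24 h array (adjusted p from 0.0739 to 0.117).

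These inhibitors showed the disagreement of the 2 arrays of 15 min. AK062394 had 15 min ratios of -0.81 and 1.66, AK067257 (a Bowman-Birk inhibitor with 1 saturated channel, called in no comparison) -1.35 and 0.95, and AK070467 0.53 and -0.67. Of the defence probes with both arrays, 16 of 108 differed by over 1 on the log2 scale between the 2 arrays of 15 min, and 6 of these took opposite signs. In untreated leaves 3 of 109 and at 24 h 6 of 103 differed by over 1. The matching counts over all probes are not given here, so these are not read as a trait of the defence probes. The 2 arrays of 15 min differ in dye orientation and scan day as well as in replicate, which cannot be told apart.

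Other genes with defence words in their description (thionins, lipid transfer proteins, harpin-induced, hypersensitive response, jasmonate-induced and Mlo genes among them) gave 90 further probes. Over all times 13 of 84 tested were called (3 higher, 10 lower in FR13A), 15.5% beside 20.2% of all probes. At 24 h 7 of 74 were called in FR13A and 7 of 74 in IR24, 9.46% in each, beside 9.93% and 8.91% of all probes. At 15 min 3 of 74 were called in FR13A (4.05% beside 1.59%) and 6 of 74 in IR24 (8.11% beside 2.09%), all higher. AK067979, like a barley hypersensitive-induced reaction protein, was lower in FR13A on every array, with ratios from -3.47 to -2.71 and a mean of -3.04 (SE 0.05, adjusted p = 1.54e-05), or -3.79 with the processed signals. The mannose-binding lectin-like AK062413 (like mulberry) was lower by -1.70 (SE 0.10, adjusted p = 0.000387), from -2.07 to -1.33, and by -2.50 with the processed signals. The Mlo-like gene AK066134 (like maize Mlo7, a membrane protein family known for powdery mildew susceptibility) fell at 24 h by 2.07 in FR13A (SE 0.26, adjusted p = 0.00119) and by 1.71 in IR24 (SE 0.26, adjusted p = 0.00328). AK111545, like a maize hypersensitive-induced response protein, rose by 1.72 in FR13A (SE 0.22, adjusted p = 0.0013) and by 1.45 in IR24 (SE 0.22, adjusted p = 0.00328). Each of these calls was kept whichever array was left out. At 15 min AK068115, like hin1 of tobacco (a harpin-induced gene), had IR24 levels of 7.95 and 7.35 untreated and 11.69 and 11.74 at 15 min, and FR13A levels of 8.57 and 7.75 against 10.14 and 11.48. It rose by 4.06 in IR24 (SE 0.58, adjusted p = 0.00812), a call lost without constitutive replicate 1 (0.0792) or replicate 2 (0.111), and it was not called in FR13A. Without any 1 array the 15 min counts were 0 to 3 in FR13A and 2 to 6 in IR24, lowest without constitutive replicate 2 or 15 min replicate 2 in FR13A and without either constitutive array in IR24. Without constitutive replicate 1 5 of the 84 were called over all times, and without 24 h replicate 1 or 2 7 and 8 were. At 24 h FR13A had 2 or 3 calls and IR24 had 2 without any 1 of the untreated and 24 h arrays.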

How the data were processed

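The scanner files hold, per the file headers, the mean spot and background intensity of both dyes, a processed intensity and the log10 ratio of Cy5 to Cy3. Scanner software was Feature Extraction 8.1, per the submitters' processing notes. The deposited series table of log10 ratios had medians of 0 and a correlation with the scanner's ratio of 1 for every replicate 1 and -1 for every replicate 2, which makes it FR13A over IR24.

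From the deposited intensity values, log2 ratios were computed in limma 3.58.1 under R 4.3.3 with normexp (offset 50) and loess. Outlier spots were left missing, and 20315 of 21495 gene probes passed the filter (either channel well above background, on 2 or more arrays). Ratios were fitted with 1 mean per time (lmFit and eBayes, 3 residual and 2.618 prior degrees of freedom). Changes over time used the separate-channel model on 12 channels after Aquantile normalisation (18907 probes, intraspot correlation 0.499). Tests were two-sided with Benjamini-Hochberg adjustment over all probes, and the scripts were tested on simulated data. The members and lists were chosen with earlier results of these data known. Any probe called in at least 1 comparison could be named, beside up to 4 per group with the smallest p, up to 3 with the highest mean intensity, the PBZ1 probes and up to 8 other defence genes. None of the members' cDNA names matched the reference table, so no coordinates are given. Alternatives were replicate block, scan day, other normalisations, no filter, outlier spots kept and each array left out.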

Additional observations from a re-analysis of the deposited data

Results flagged for a closer look

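In the change from untreated leaves to 24 h, submergence and 1 day of age cannot be told apart. This change differed between FR13A and IR24 by a direct test for the germin-like gene GER2 (AK059812). Its log2 ratio of FR13A over IR24 changed by 1.68 (SE 0.14, limma adjusted p = 0.0374) from untreated leaves to 24 h. The ratio was below 0 on both untreated arrays (-0.45 and -0.29) and above 0 on both 24 h arrays (1.42 and 1.20). The call was lost without any 1 of the 6 arrays (adjusted p from 0.0615 to 0.329), with scan day as a fixed term (0.234) and with global median centring (1).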

How the results depend on the processing

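All called member values kept their direction under every alternative except GER2 (AK059812) over all times, which was 0.285 and became -0.027 with the processed signals. Counts of called members that moved by over 1.5 times are as follows, in the order over all times, untreated, 15 min, 24 h for the ratios. Global median centring in place of loess gave 23, 8, 3 and 6. With scan day as a fixed term the ratio counts at 15 min and 24 h were 4 and 12, FR13A had 0 at 15 min and 9 at 24 h, and IR24 0 and 5. The processed signals gave 20 for the ratio at 15 min. The called ratio change at 24 h numbered 1, and became 0 with centring or scan day and 2 with the processed signals. Leaving out 1 array gave 27 to 38 over all times, 3 to 26 untreated, 2 to 17 at 15 min and 5 to 23 at 24 h for the ratios, 0 to 4 and 9 to 28 in FR13A at 15 min and 24 h, 2 to 7 and 5 to 23 in IR24, and 0 for the ratio changes. Whichever array was left out, 23 of 40, 1 of 17, 2 of 13 and 4 of 20 ratio calls, 0 of 3 and 8 of 20 FR13A calls, and 2 of 4 and 5 of 15 IR24 calls were kept. The losses listed above for single probes are mostly those with 1 array left out, and other alternatives lost further calls. With scan day as a fixed term 68 of 133 calls were lost, and with global median centring 51 of 91 ratio calls. Scan day and leave-one-out channel fits used the intraspot correlation of all arrays.

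Deviations of same-numbered replicates correlated at 0.1 between untreated and 15 min arrays, 0.06 between untreated and 24 h, and 0.402 between 15 min and 24 h. The numbers also mark dye orientation, and those of 15 min and 24 h share their scan day. Whether the numbers pair the samples can therefore not be told. With a replicate block the called ratio counts were 37, 13, 10 and 15, FR13A had 3 and 14, IR24 4 and 14, and the ratio change at 24 h had 0.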
